A study of Mus musculus with 8 samples.

Results

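Desmoplakin (Dsp), connexin 43 (Gja1), plectin (Plec), dystonin (Dst) and Ahnak join heart muscle cells to one another or tie their membrane to the cytoskeleton. All peaks of N6-methyladenosine (m6A) deposited for these 5 genes were taken by their Entrez gene ID from the 2 tables of a MeRIP-seq study of mouse left ventricle. This gave 21 of 581 peaks: 2 of 116 in the table that compares infarcted with sham-operated hearts, and 19 of 465 in the table that compares aavFto with aavgnp hearts. The genes were chosen by name with their deposited log2 changes and enrichment known, so these values are a description. Position and block structure along the gene were not used directly to choose them, though most were chosen as genes of very large proteins.

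The study had 8 libraries in 4 groups, each with 1 input library and 1 MeRIP library, in which fragmented poly(A) RNA was pulled down with an antibody against m6A. The groups were sham surgery, myocardial infarction (MI), and MI combined with either aavgnp or aavFto, all in C57BL/6 mice labelled WT and all harvested at 1 week. The aavFto hearts are taken to carry a vector for Fto, which encodes an m6A demethylase, and the aavgnp hearts to be their controls, since the labels expand neither name. The name of that table gives the second group as null, which is taken here as aavgnp because the labels of both vector groups name the table. Vector dose, promoter, animal age and the number of animals behind each library are not stated in the labels. No group had a second library, so the changes below cannot be set against replicate spread, and the deposited p-values compare libraries. The files give 1 change per peak and no value per library. A positive sign was taken to mean a higher value in MI than in sham, or with aavFto than with aavgnp. With the opposite reading every direction of that table turns. Whether the change is in pulled-down signal alone or relative to input is not stated. It is therefore not read as a change in methylation. Read depth is unknown.

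The intercalated disc is the end-to-end contact of heart muscle cells. Its desmosomes hold cells together through intermediate filaments, its adherens junctions anchor actin, and its gap junctions pass current from cell to cell. Plakins, the family of Dsp, Plec and Dst, are very large proteins that bridge filament systems and junctions. m6A is laid down on messenger RNA in the nucleus, and is known to be dense in long internal exons and around stop codons.

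None of the 21 peaks passed a false discovery rate (FDR) of 0.05 in the authors' test, and 0 had an unadjusted p under 0.05. The background was 14.7% of peaks past the FDR and 25.9% under the p in the MI table, and 1.72% and 4.3% in the aavFto table. Both MI peaks carried the FDR of 0.741 that 66 of the 116 peaks share in the authors' deposited table. All 19 aavFto peaks carried 0.713, shared by 443 of 465 peaks of the authors' deposited table. The smallest unadjusted p was 0.208, at an Ahnak peak with aavFto. No rise or fall was therefore called for these genes in either comparison.

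With aavFto 5 of the 19 peaks had a positive change (26.3%, beside 32.7% over the whole table) and 14 a negative one (73.7%, beside 67.3%). Their median log2 change was -0.86, beside -0.61 over all peaks. It was -0.71 over the peaks of other genes that, like all 19, consisted of a single block on the genome. Plec held 9 of the 14 negative peaks, and without Plec the count was 5 negative and 4 positive. After MI the Dsp peak was negative and the Ahnak peak positive, beside 84.5% positive over that table. Gja1, Plec and Dst had no peak in the MI table. That table lists no change smaller than 1.01 in size, so an absent gene is not shown to be unchanged. Fewer cells of a type and less RNA per cell cannot be told apart in this tissue, and transcript levels were not analysed here.

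**Figure D1:**
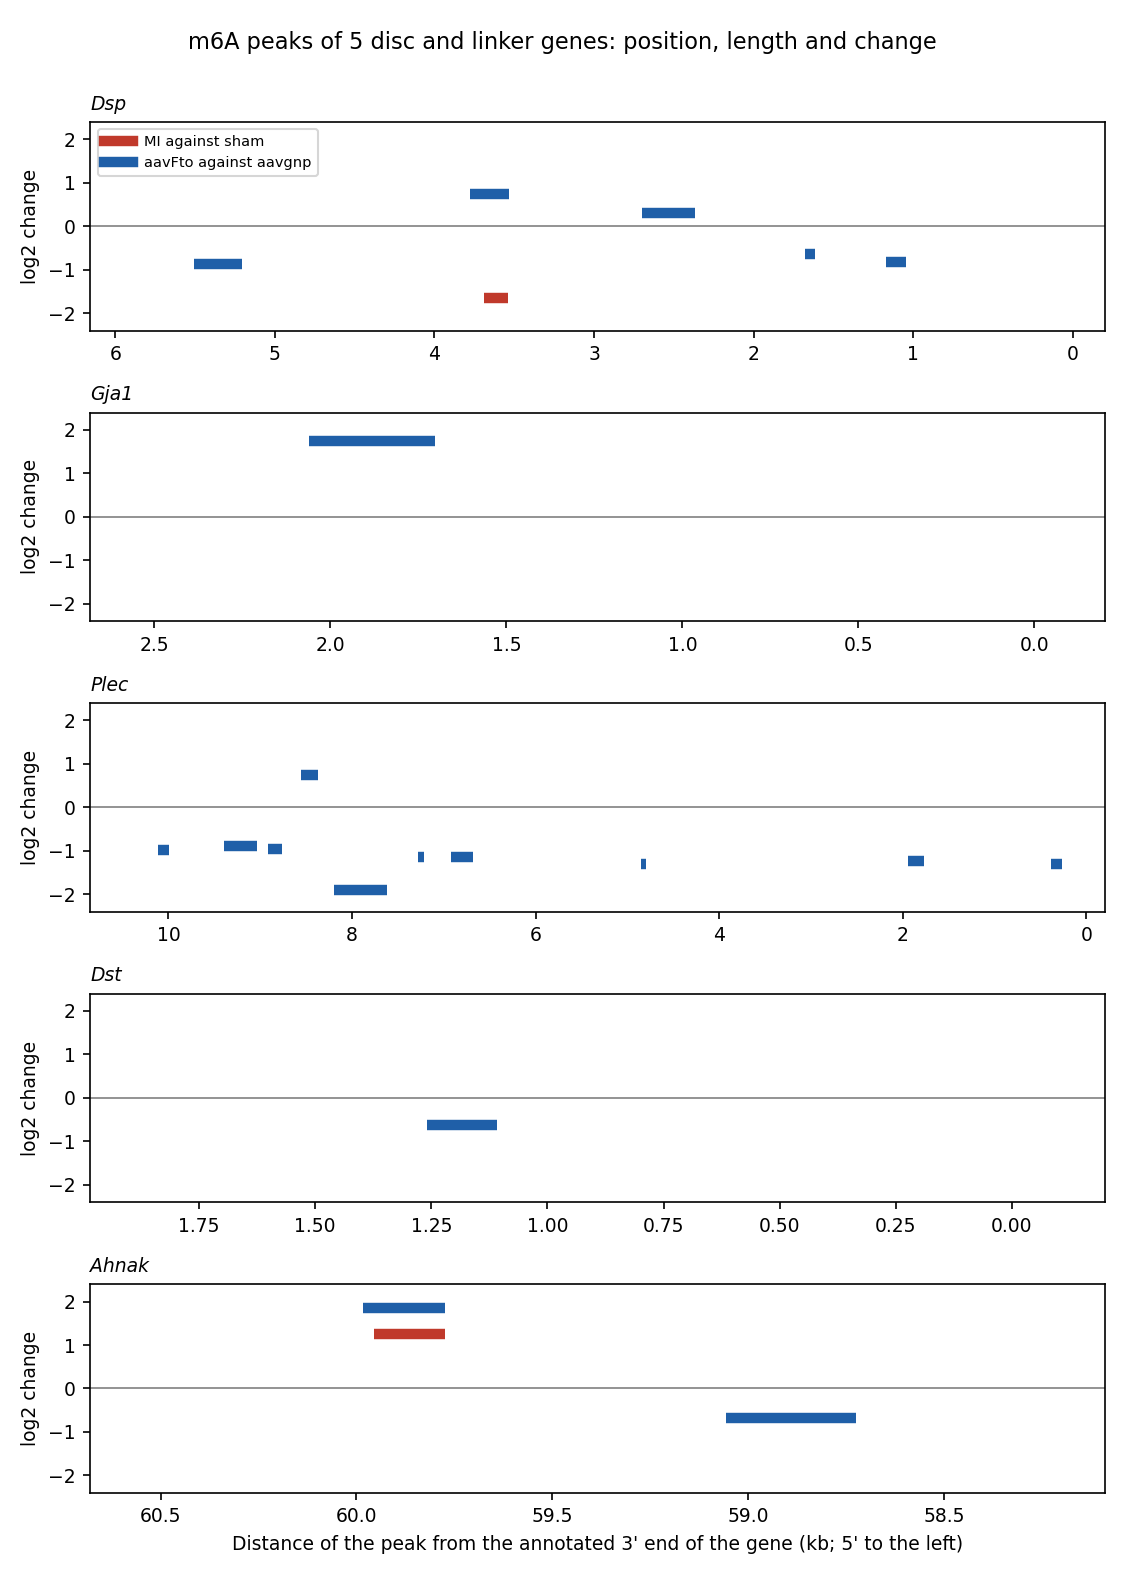
Each bar is 1 m6A peak, drawn at its distance from the annotated 3′ end of its gene in kb (5′ to the left, scales differ between genes) and at its log2 change. Red bars are from the MI table and blue bars from the aavFto table, without error bars because no group had a replicate; 9 of 10 Plec bars lie below 0, and Dsp and Ahnak have bars on both sides.

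Dsp encodes desmoplakin, which links desmosomes to desmin filaments, and is annotated on chromosome 13 from 38151294 to 38198577 on the plus strand (mm10). Its 5 peaks in the aavFto table fell in a window of 4458 nt between 88.7% and 97.7% of the gene span, and together covered 1053 nt (23.6%) of that window. From 5′ to 3′, the authors' deposited table gave log2 changes of -0.86, 0.75, 0.30, -0.64 and -0.83. The 2 positive peaks were thus adjacent, with negative peaks on both sides. They had the smallest enrichment p of the gene, with a log10 p of -6.79 and -8.77 in the authors' deposited table, against -5.05 to -4.06 for the other 3. By fold enrichment they were second lowest and highest of the 5, at 34.1 and 77.6, against 33.6 to 59.3, in the authors' deposited table.

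The Dsp peak of smallest enrichment p lay at 38195880 to 38196209, was 330 nt long and had a fold enrichment of 77.6, in the authors' deposited table. Its change of 0.30 (p 0.675) was the smallest in size among the 19. A peak of 301 nt at 38193071 to 38193371 carried the most negative change of the gene, -0.86 (p 0.448), with a fold enrichment of 33.6 in the authors' deposited table. A short peak of 61 nt at 38196899 to 38196959 stood at -0.64 (p 0.631), and the last peak, of 121 nt at 38197408 to 38197528, at -0.83 (p 0.592), in the authors' deposited table. The gaps between neighbours were 448 to 1429 nt, so none of its peaks touched another.

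The second Dsp peak from the 5′ end appeared in both tables. It covered 240 nt from 38194801 to 38195040 in the aavFto comparison, and 151 nt from 38194890 to the same end after MI. The authors' deposited table gave a change of -1.64 (p 0.301, fold enrichment 47.2) for it in MI against sham. With aavFto the authors' deposited table gave 0.75 (p 0.548, fold enrichment 34.1). The signs differed between the comparisons, neither change was called, and the difference between them was not tested. The comparisons use different libraries and share no control group.

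Gja1 encodes connexin 43, the main gap junction protein of the ventricle, and lies on chromosome 10 from 56377300 to 56390419. Its single peak, in the aavFto table only, covered 360 nt from 56388357 to 56388716 on the plus strand, centred 1882 nt before the annotated 3′ end, at 85.7% of the span. The authors' deposited table gave it a fold enrichment of 50.3 with a log10 p of -5.60. Its log2 change was 1.74 (p 0.223) in the authors' deposited table, the second highest of the 19 after an Ahnak peak. Changes of 1 or higher were found at 2 of the 19 peaks, beside 11.8% of all peaks in that table.

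Plec encodes plectin, which ties desmin to Z-discs, mitochondria, the nuclear envelope and the cell membrane. It is annotated on chromosome 15 from 76170974 to 76231378, and its peaks are on the minus strand. Its 10 peaks, all from the aavFto table, were as many as those of Col4a2 and more than those of any of the other 269 named genes, most of which (177 of 271) had 1 peak. Plec peaks covered 2046 nt in a window of 9841 nt (20.8%) at the 3′ end of the gene, between 83.4% and 99.5% of the span. A run of 7 peaks lay in 3430 nt with gaps of 118 to 598 nt, and the other 3 lay nearer to the 3′ end, behind gaps of 1378 to 2846 nt.

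Along Plec from 5′ to 3′, the authors' deposited table gave log2 changes of -0.98, -0.88, -0.97, 0.75, -1.90, -1.13, -1.13, -1.29, -1.24 and -1.31. The 3 peaks nearest to the 3′ end thus stood within 0.07 (log2) of each other, while the widest contrast was between direct neighbours. The positive peak, of 181 nt at 76179346 to 76179526, was followed 179 nt downstream by the longest and most negative one, of 570 nt at 76178597 to 76179166. For these the authors' deposited table gave a p of 0.547 and 0.281 and a fold enrichment of 65.9 and 64.3. The unadjusted p of the 10 peaks ran from 0.281 to 0.581, and none was called.

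Changes of -1 or lower were found at 6 of the 19 peaks (31.6%), beside 16.3% over the table, and all 6 were in Plec. Among genes with at least 5 peaks in the aavFto table, a group set after the values were seen, Plec was not alone in its sign. Fn1 had 5 of 5, Ttn 5 of 5, Col4a1 6 of 7 and Col1a2 5 of 6 negative peaks, while Col4a2 had 6 of 10, Dsp 3 of 5 and Eef2 3 of 5. Muscle genes of the same group fell on both sides. Ttn is one of them, while 0 of 5 peaks were negative in Myh6, 1 of 5 in Atp2a2 and 2 of 5 in Myh7. The median change in the authors' deposited table was -1.13 for Plec, -1.36 for Ttn, -0.93 for Fn1 and -0.30 for Col4a2. In the authors' deposited table the median was 1.43 for Myh6, 1.87 for Atp2a2 and 0.28 for Myh7. Peaks of 1 gene share the same transcripts and libraries, so 9 negative peaks are not 9 independent measurements.

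Dst encodes dystonin, a plakin that connects intermediate filaments, actin and microtubules, and its annotated span on chromosome 1 from 33907888 to 34308662 is the longest of the 5, at 400775 nt. The single Dst peak, in the aavFto table, covered 151 nt from 34307403 to 34307553 on the plus strand, 1184 nt before the 3′ end, at 99.7% of the span. The authors' deposited table gave it a fold enrichment of 53.6 (log10 p -4.50) and a log2 change of -0.63 (p 0.632). Its change was thus the second smallest in size of the 19.

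Ahnak encodes a giant scaffold protein that lies under the cell membrane and binds actin and calcium channel subunits. It is annotated on chromosome 19 from 8989284 to 9076935. On the annotated span alone Ahnak peaks stood apart, at 31.7% to 32.8% of it. Their centres lay 58890 to 59879 nt from the annotated 3′ end. No exons or transcript ends were used, so the distance to the 3′ end of a given Ahnak transcript is unknown and may be shorter. A peak of 211 nt at 9016951 to 9017161 on the plus strand had the highest change of the 19, 1.84 (p 0.208), with a fold enrichment of 51.2 in the authors' deposited table. At 718 nt downstream, a peak of 331 nt at 9017880 to 9018210 stood at -0.68 (p 0.622), with a fold enrichment of 63.0 in the authors' deposited table.

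The first Ahnak peak was the other one present in both tables. In the MI table it ran from 9016981 to the same end as in the aavFto table and was 181 nt long. Its change in MI against sham was 1.26 (p 0.504, fold enrichment 89.2) in the authors' deposited table. It was positive in both comparisons, unlike the shared Dsp peak. Such overlap is common, since 109 of the 116 peaks of the MI table (94.0%) shared 1 bp or more, strand included, with a peak of the aavFto table.

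**Figure D2:**
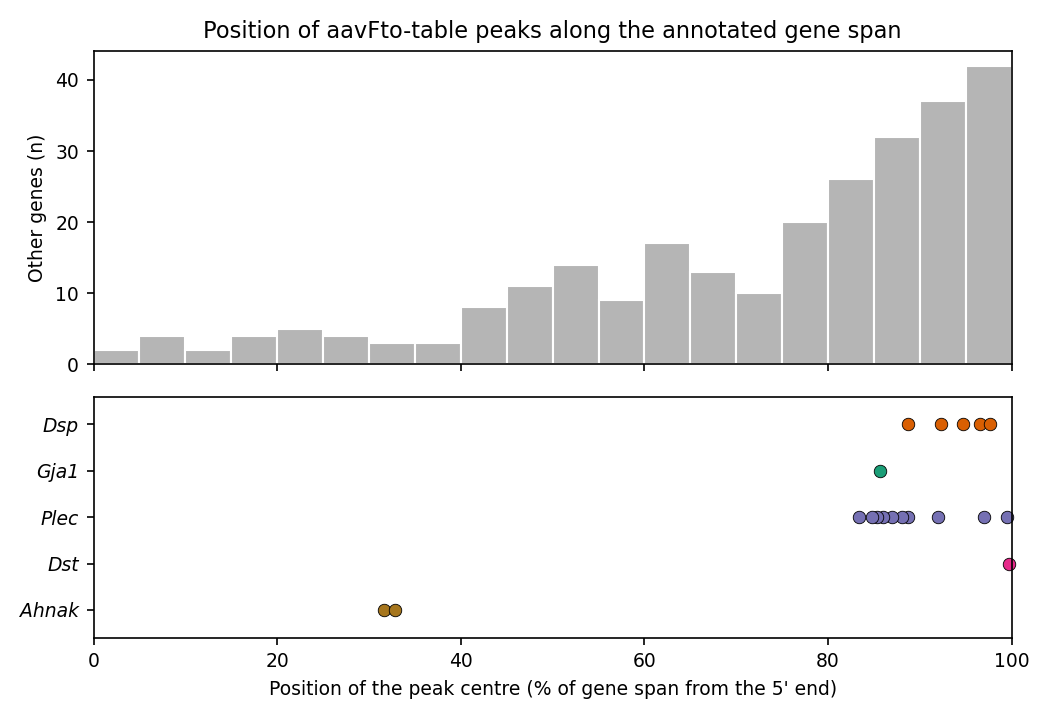
The upper panel is a histogram of the median peak position of the other 266 named genes in the aavFto table, and the lower panel shows each peak of the 5 genes, both as the percent of the annotated gene span from the 5′ end. Dsp, Gja1, Plec and Dst peaks lie beyond 83.4%, and both Ahnak peaks lie near 32%.

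Position and block structure set the members beside the rest of the table without use of their changes. Most members were chosen as genes of very large proteins, so these traits may not be independent of that choice. With aavFto, 17 of 19 member peaks (89.5%) had their centre beyond 75% of the gene span, beside 251 of 430 (58.4%) in other named genes. That span includes introns and is long in some members, such as Dst. By distance the contrast was smaller, with 16 of 19 member peaks and 330 of 430 others centred within 10 kb of the annotated 3′ end. Counted by gene, the median position was beyond 75% for 4 of 5 and for 157 of 266 (59.0%). All 19 peaks, and both in the MI table, consisted of a single block on the genome, without a gap for an intron. Of the peaks of other named genes in the aavFto comparison 210 of 430 (48.8%) did so, and 116 of 266 other genes (43.6%) had only such peaks. These traits were not particular to the members. With aavFto, all peaks of the disc and membrane skeleton genes Xirp2 and Flnc were single blocks beyond 75% of the span. No aavFto peak of Nrap, Tln1, Xirp1, Des or Vim had both traits. Among other muscle genes, Ttn had 5 of 5 single-block peaks, Atp2a2 2 of 5, and Myh6 and Myh7 0 of 5 each. Exon positions were not used here, so the exon of each peak and its place relative to the stop codon are not given. With 5 genes, Plec alone giving 10 peaks, these shares describe the members and were not tested.

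The member peaks had the same median length as the peaks of other named genes in the aavFto table, 181 nt, with a range of 60 to 570 nt. Their median fold enrichment of 51.2 was near the 54.7 of other named genes. Windows of 250 bases before to 50 after an annotated RefSeq start were used for Dsp, Gja1, Dst and Ahnak, and not for Plec. None of the 11 peaks of these 4 genes, counted over both tables, overlapped one. The shortest distance between centres was 11337 nt, in Gja1.

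The median fold enrichment was 51.2 (34.1 to 77.6) for positive and 51.1 (33.6 to 68.4) for negative member peaks with aavFto, and the median length 240 and 151 nt. By enrichment p they lay further apart. All 5 positive peaks had a log10 enrichment p of -5.60 or lower in the authors' deposited table, with a median of -5.71, and the 14 negative ones lay between -6.14 and -3.67 with a median of -4.45. Split at the median enrichment p of the table, 5 of the 9 stronger member peaks (55.6%) and 0 of the 10 weaker ones were positive. Over the whole table the shares were 52.1% and 13.0%. Among single-block peaks of other genes the shares were 39.5% and 10.6%, and 78.9% of those peaks were negative in all, a share above that of the members. The part that a weak enrichment p plays in the negative changes was not tested.

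**Figure D3:**
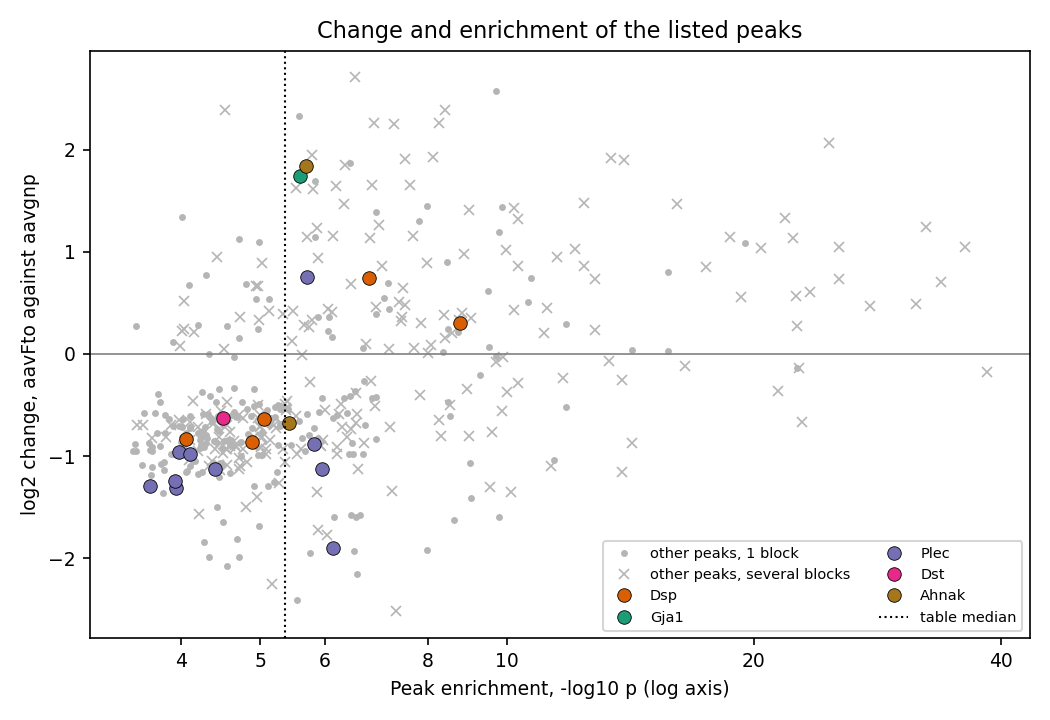
Each point is 1 of the 465 peaks of the aavFto table, with its enrichment as -log10 p on a log axis against its log2 change; coloured circles are the 5 genes, grey dots and crosses other peaks with 1 or several blocks, and the dotted line the median enrichment. To the left of the line all 10 member peaks lie below 0, in the cloud of other weak peaks, and to the right 5 of 9 lie above it.

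Some member peaks had the same enrichment values as peaks of other genes. Among the 8 weakest, with a log10 p between -4.50 and -3.67 the fold enrichment ran from 45.1 to 53.6 in strict order of the p, all 8 changes were negative, and 3 shared both values with another gene. The last Dsp peak had the fold enrichment of 49.1 and log10 p of -4.06 that the authors' deposited table also gives for a peak of Cavin1 and a peak of Malat1. Their changes were as close, -0.83 for Dsp, -0.82 for Cavin1 and -0.78 for Malat1 in the authors' deposited table. The first Plec peak shared its values, 49.6 and -4.11, with peaks of Map4k4 and Cd248, with changes of -1.10 and -0.73 in the authors' deposited table. Another Plec peak, of 61 nt, shared 45.1 and -3.67 with a Fam43a peak at -0.94, against -1.29 in Plec, in the authors' deposited table. A Plec peak of smaller enrichment p, of 241 nt at 76177655 to 76177895, shared 68.4 and -5.95 with a Sparc peak, and there the changes were -1.13 in Plec and -0.43 in Sparc in the authors' deposited table.

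Other genes of the disc, the linkers and the membrane skeleton were sparsely listed. Of 36 such genes besides the 5, the MI table listed 2, both with a positive change, and 0 of their 2 peaks passed the FDR. These were Xirp2, an actin-binding protein of the disc, at 1.93 (p 0.164), and Nrap, which anchors thin filaments at the disc, at 1.55 (p 0.447), in the authors' deposited table. With aavFto 7 of the 36 were listed, 1 positive and 6 negative by largest change, with a median of -1.0, beside 82 positive and 189 negative and a median of -0.69 over all 271 named genes. By peak, 3 were positive and 10 negative. None of these 13 peaks passed the FDR or an unadjusted p of 0.05.

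The positive one was Des, which encodes the desmin filament that desmoplakin and plectin bind, at 0.55 (p 0.0759) in the authors' deposited table. The most negative was the actin crosslinker Flnc at -2.16 (p 0.182), followed by Nrap at -1.18 and Tln1, which links integrins to actin, at -1.10, in the authors' deposited table. In the authors' deposited table Xirp1 stood at -1.0, Xirp2 at -0.95 and Vim, the filament of non-muscle cells, at -0.26. These are the largest changes of each gene, and the peak of smallest enrichment p was positive in the authors' deposited table for Xirp2, at 0.51, and for Nrap, at 0.90. No other member of the desmosome list, of the gap junction list or of the adherens junction list had a peak in either table. Dsp was thus 1 of 5 desmosome genes listed and Gja1 1 of 4 gap junction genes.

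**Figure D4:**
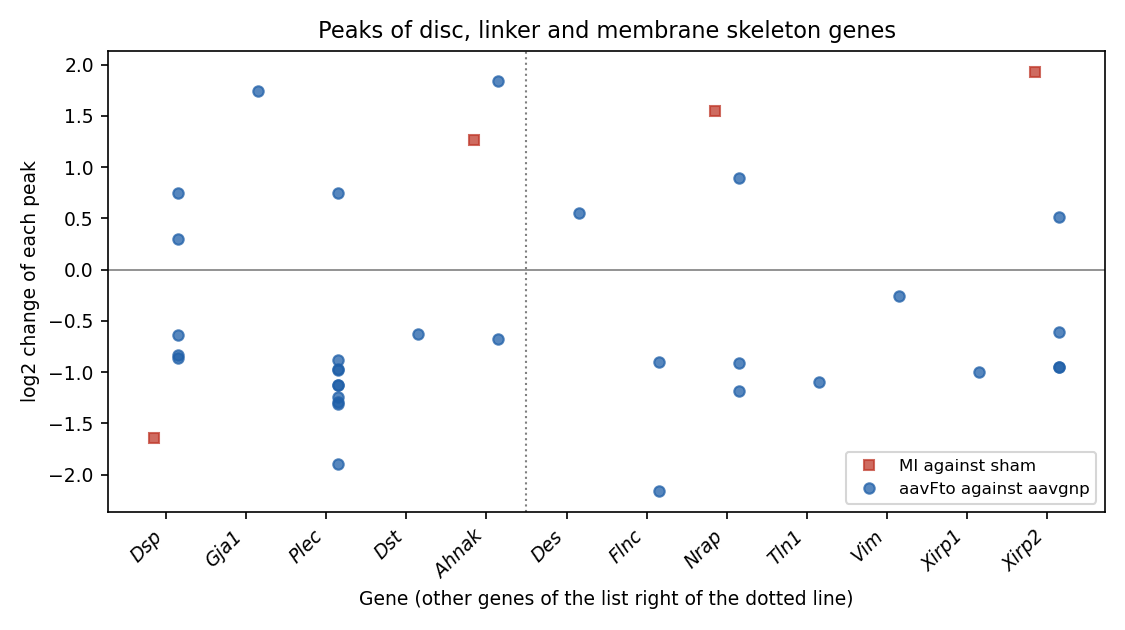
Each symbol is 1 peak with its log2 change, as red squares for MI against sham and blue circles for aavFto against aavgnp; the 5 genes stand left of the dotted line and the other 7 listed genes right of it. Both red squares right of the line lie above 0, at 1.55 and 1.93, and the lowest blue circle is Flnc at -2.16.

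Markers of the cell types in the ventricle were looked up in the same tables. All 4 cardiomyocyte markers had peaks in the aavFto table, 7 positive and 1 negative, and 3 passed the FDR. Myh6 alone gave 5 of the 7 positive peaks and 2 of the 3 past the FDR. Fibroblast markers were listed for 2 of 4 genes, with 2 positive and 3 negative peaks, and endothelial markers for 1 of 3, with 2 negative peaks. Over all aavFto peaks 32.7% were positive and 1.72% passed the FDR. After MI, 1 cardiomyocyte peak was negative and passed the FDR. There 3 fibroblast peaks were positive with 2 past the FDR, and 1 endothelial peak was positive and did not pass. Over all MI peaks 84.5% were positive and 14.7% passed the FDR, so a positive sign was usual there. No macrophage or smooth muscle marker of the lists had a peak in either table. Dsp and Gja1 are at their highest in muscle cells of the ventricle, while Plec, Dst and Ahnak are made in many cell types. The part of tissue make-up in the changes of the 5 genes was not tested.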

How the data were processed

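Poly(A) RNA from left ventricle was fragmented, pulled down with an anti-m6A antibody and sequenced, from 200 µg of RNA per group as 50 bp single reads, per the labels' protocols. The submitters' processing notes name the aligner STAR (2.5.3a) and the build mm10. Peak caller, thresholds and library scaling were not given in the sources used here. In 2 tables, the authors deposited the enrichment p-value of each peak as a score, its log10 p and log10 FDR, a fold enrichment (a linear ratio, read as MeRIP over input), and the log2 change between groups with its log10 p and log10 FDR, per the file headers. For printing, p and FDR were computed back from their log10 values, and every p-value is the authors' own.

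Gene IDs were matched to a RefSeq table of GRCm38.p6, the assembly of mm10, for 105 of 116 and 449 of 465 peaks; the other 11 and 16 had no ID. Positions are 1-based, and the position of a peak is that of its centre on the gene span. Sequence under the peaks was not used here, so no motif was searched. Peaks of both tables counted as shared from 1 bp of overlap, strand included. Every peak of the 5 genes is reported, with the listed genes of a related list and of cell type markers (1 further gene of the related list was left out of its counts and is not reported here), and other genes where they share enrichment values with a member. The members and lists were chosen with earlier results of these data known. Interval code was tested on simulated data. Python 3.11.15 and pandas 2.3.3 were used. Alternatives were other FDR thresholds, a minimum change, a minimum enrichment, merged peaks, other ways to represent a gene, a stricter overlap and, added after seeing the data, the count without Plec. With 1 library per group and no library totals, depth and its precision are unknown.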

Additional observations from a re-analysis of the deposited data

How the results depend on the processing

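FDR thresholds of 0.01 and 0.1 could not change the count of 0 peaks, since all member peaks carried 0.741 or 0.713. Merging overlapping peaks could not change the 5 positive and 14 negative peaks with aavFto, since none of them overlapped another. Changes of at least 1 in size left 2 positive and 6 negative peaks with aavFto, and a fold enrichment at or above the table median left 2 and 5, in both cases because fewer peaks were counted. In the MI table the latter removed the negative Dsp peak, for a count of 0 negative peaks. Without Plec, an alternative added after seeing the data, 5 negative and 4 positive peaks remained with aavFto. Dsp with aavFto turned from -0.86 at its peak of largest change to 0.30 at its peak of smallest enrichment p, and its mean over peaks was -0.26. The mean was -1.01 for Plec, in place of -1.90, and 0.58 for Ahnak, in place of 1.84. Both shared peaks also overlapped by at least 50% of the shorter peak. No paired analysis was possible because each group had 1 library. The unknown depth limits all weak peaks.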
